A study of Mus musculus with 24 samples.

Results

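RNA of the mouse retinal pigment epithelium (RPE) was followed through a light and dark cycle, and 51 protein-coding genes were picked out because they were higher 1 h after light onset than both at light onset (0 h) and at 3 h. Members were chosen by their measured levels at 0, 1 and 3 h. A gene was a member when its mean at 1 h was at least 2 CPM (counts scaled to a library total of 1000000) and at least 1.3 times the mean at 0 h and the mean at 3 h, and when the lowest of the 3 mice at 1 h lay above the highest of the 6 mice at 0 h and 3 h. The table holds 54532 genes, of which 22046 are protein-coding and 12926 of these reached 2 CPM at 1 h. The rule took 55 genes, 0.425% of the 12926. Per1, Cish, Cdkn1a and Tsc22d3 were then set aside, which left the 51.

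All mice were wild-type 129S1/SvlmJ animals carrying the Leu450 form of Rpe65, kept on a standard diet with 12 h of light a day. Each of 8 times (0, 1, 3, 5, 6, 9, 15 and 16 h after light onset) had 3 mice, and 15 h and 16 h fell in the dark. The sources used here give neither age nor sex, and no group was treated. The study asked how the clock governs lysosomal and autophagy genes. Every mouse lived on the same light cycle, so effects of light and of time of day cannot be told apart.

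The RPE is a single layer of pigmented cells behind the photoreceptors. It recycles visual pigment and each morning takes up the tips that photoreceptor outer segments shed. Many tissues also show a short pulse of transcripts soon after waking or light onset, carried by genes that answer directly to corticosteroids, cyclic AMP or growth factors and whose RNA is short-lived. Feedback inhibitors and transcription factors are common among such genes.

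Libraries held 14073440 to 17492470 counts, which limits precision most for the 9 members under 5 CPM at 1 h. The RPE markers Rpe65, Rlbp1, Lrat and 7 others summed to 37351 to 44314 CPM at 1 h, against 37449 to 42932 at 0 h and 3 h. The 8 cone photoreceptor markers summed to 57.7 to 91.1 CPM at 0 h, 23.8 to 45.8 at 1 h and 38.8 to 53.3 at 3 h, and 9 rod markers to 1129 to 1723, 259 to 707 and 410 to 859 CPM. Of these 3 times, every mouse of 0 h had more photoreceptor RNA than any mouse of 1 h or 3 h. The part of this shift in the members' values was not tested. Macrophage and mast cell markers summed to 926 to 973 CPM at 1 h and 879 to 1006 at 0 h and 3 h. A pair of libraries, those of mouse 3 at 15 h and mouse 3 at 6 h, differed from the rest, with mitochondria-encoded transcripts summing to 5425 and 30324 CPM against 36336 to 62885 elsewhere. Neither library was used to choose the members. The tests on later times and the count of members highest at 1 h are given with and without them. Other means and medians at 6 h and 15 h include them unless stated. In bulk tissue fewer cells of a type and less RNA per cell cannot be told apart.

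By the rule as set, peaks at 1 h were fewer than peaks at 3 h or dips at 1 h found in the same way. The same rule with 3 h in the middle, against 1 h and 5 h, took 143 genes (1.10% of 13052), led by Npvf, Dsg1a, Optc and Notum. Turned upside down, with 1 h below both neighbours, the rule took 84 genes (0.653% of 12855). Both counts exceeded the 55 of the 1 h peak, but they share genes, among them Dsg1a and F5. Leaving out 1 mouse of 0, 1 or 3 h gave 49 to 128 members, and the dips were not recounted in this way. The gap from 0 h to 1 h is also shorter than those from 1 h to 3 h and from 3 h to 5 h. The 8 lens and ciliary body markers summed to 24.3 to 85.9 CPM at 0 h and 26.3 to 210.6 at 1 h. They summed to 67.1 to 296.0 CPM at 3 h and 25.3 to 77.2 at 5 h. The part of such tissue in these counts was not tested. Of all 12926 protein-coding genes, 31.5% had a 1 h mean above both neighbours, and the median ratio of the 1 h mean to the higher neighbour was 0.96.

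Among the members that ratio had a median of 1.47, and it was at least 1.5 in 20 genes, at least 2 in 4 and under 1.4 in 17. These values chose the genes and are a description. Sik1, Nab2 and Catsperg1 lay just inside the threshold, at 1.305, 1.31 and 1.312. Slc7a5 (278.3, 360.9 and 278.5 CPM at 0, 1 and 3 h), Syne3 and Zfp583 lay just outside, at 1.296, 1.294 and 1.292. Mouse 1, 2 and 3 of 1 h were the highest of the 3 in 11, 20 and 20 members.

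Promoter windows (RefSeq, GRCm38.p6, 250 bases before to 50 after a start site) were found for 40 of the 51 members, 62 windows in all. They were searched on both strands for sites of the factors that commonly drive early transcripts. The windows of Map3k6, 9330159F19Rik and Klf9 are shown. That of Map3k6 holds the only match to the glucocorticoid response element (GNACA and TGTNC with 3 bases between them). That of 9330159F19Rik holds the only match to the full cyclic AMP response element (TGACGTCA). That of Klf9, a corticosteroid target, holds matches to the letters searched for 3 factor families. Capitals mark these matches only, so CCAAT and TATA boxes stay in lower case. In Klf9 the capitals are from left to right TGAATCA, a core cyclic AMP site (TGACG) and a STAT site (TTCNNNGAA). TGAATCA matched the AP-1 letters as searched (TGANTCA), which left the middle base open.
Map3k6 (chr4:133240568-133240867, plus strand): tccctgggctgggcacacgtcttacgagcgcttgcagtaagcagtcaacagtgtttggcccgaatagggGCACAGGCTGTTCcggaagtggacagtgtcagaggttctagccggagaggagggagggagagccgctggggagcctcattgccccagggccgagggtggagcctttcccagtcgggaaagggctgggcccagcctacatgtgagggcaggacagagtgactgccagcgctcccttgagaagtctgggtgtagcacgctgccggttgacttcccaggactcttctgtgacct
9330159F19Rik (chr10:29211393-29211692, plus strand): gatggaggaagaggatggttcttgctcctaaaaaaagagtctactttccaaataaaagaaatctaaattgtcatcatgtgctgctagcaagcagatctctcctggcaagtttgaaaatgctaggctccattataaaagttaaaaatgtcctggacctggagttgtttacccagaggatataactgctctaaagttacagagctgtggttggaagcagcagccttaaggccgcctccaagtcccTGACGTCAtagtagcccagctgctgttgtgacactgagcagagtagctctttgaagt
Klf9 (chr19:23140976-23141275, plus strand): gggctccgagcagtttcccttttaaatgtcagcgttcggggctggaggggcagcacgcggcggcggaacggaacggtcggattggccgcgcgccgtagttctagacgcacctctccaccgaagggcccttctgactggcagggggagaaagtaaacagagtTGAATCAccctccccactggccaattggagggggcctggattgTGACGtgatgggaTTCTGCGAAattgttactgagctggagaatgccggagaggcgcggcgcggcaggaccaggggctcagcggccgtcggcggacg
The match in capitals begins 181 bases before the start site in Map3k6. In 9330159F19Rik it begins 7 bases before the start site and runs up to it. In Klf9 the matches begin 89, 46 and 33 bases before the start site.

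Counted by window, and apart from the glucocorticoid and AP-1 letters, each motif was in a smaller share of member windows than of all windows. The glucocorticoid element was in 1.6% of member windows and 0.4% of 20120 windows of all protein-coding genes, which is 1 window against 90. The full cyclic AMP element was in 1.6% and 2.3%, and the core site, which the full element contains, in 13 of 62 member windows and 4860 of 20120. STAT sites were in 4.8% and 7.7%, and the E-box of the clock (CACGTG) in 6.5% and 8.0%. The AP-1 letters, with any base in the middle, were in 9.7% and 7.0%. TATA boxes (TATAAA) were in 9.7% and 12.1%, and CCAAT boxes (CCAAT) in 33.9% and 37.9%. Counted by gene, several of these shares were instead larger in the members. The core site was in 12 of 40 member genes against 26.9% of 16497 genes, and the E-box in 4 of 40 against 9.2%. TATA boxes were in 6 of 40 against 14.3%, and CCAAT boxes in 19 of 40 against 42.1%. STAT sites (3 of 40 against 9.0%) and the full cyclic AMP element (1 of 40 against 2.6%) stayed lower. A match is only a run of letters in this window. Member gene models were shorter, with a median of 3682 bases against 4536 for all 12926 genes, and a median genomic span of 12959 against 25184 bases.

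**Figure D1:**
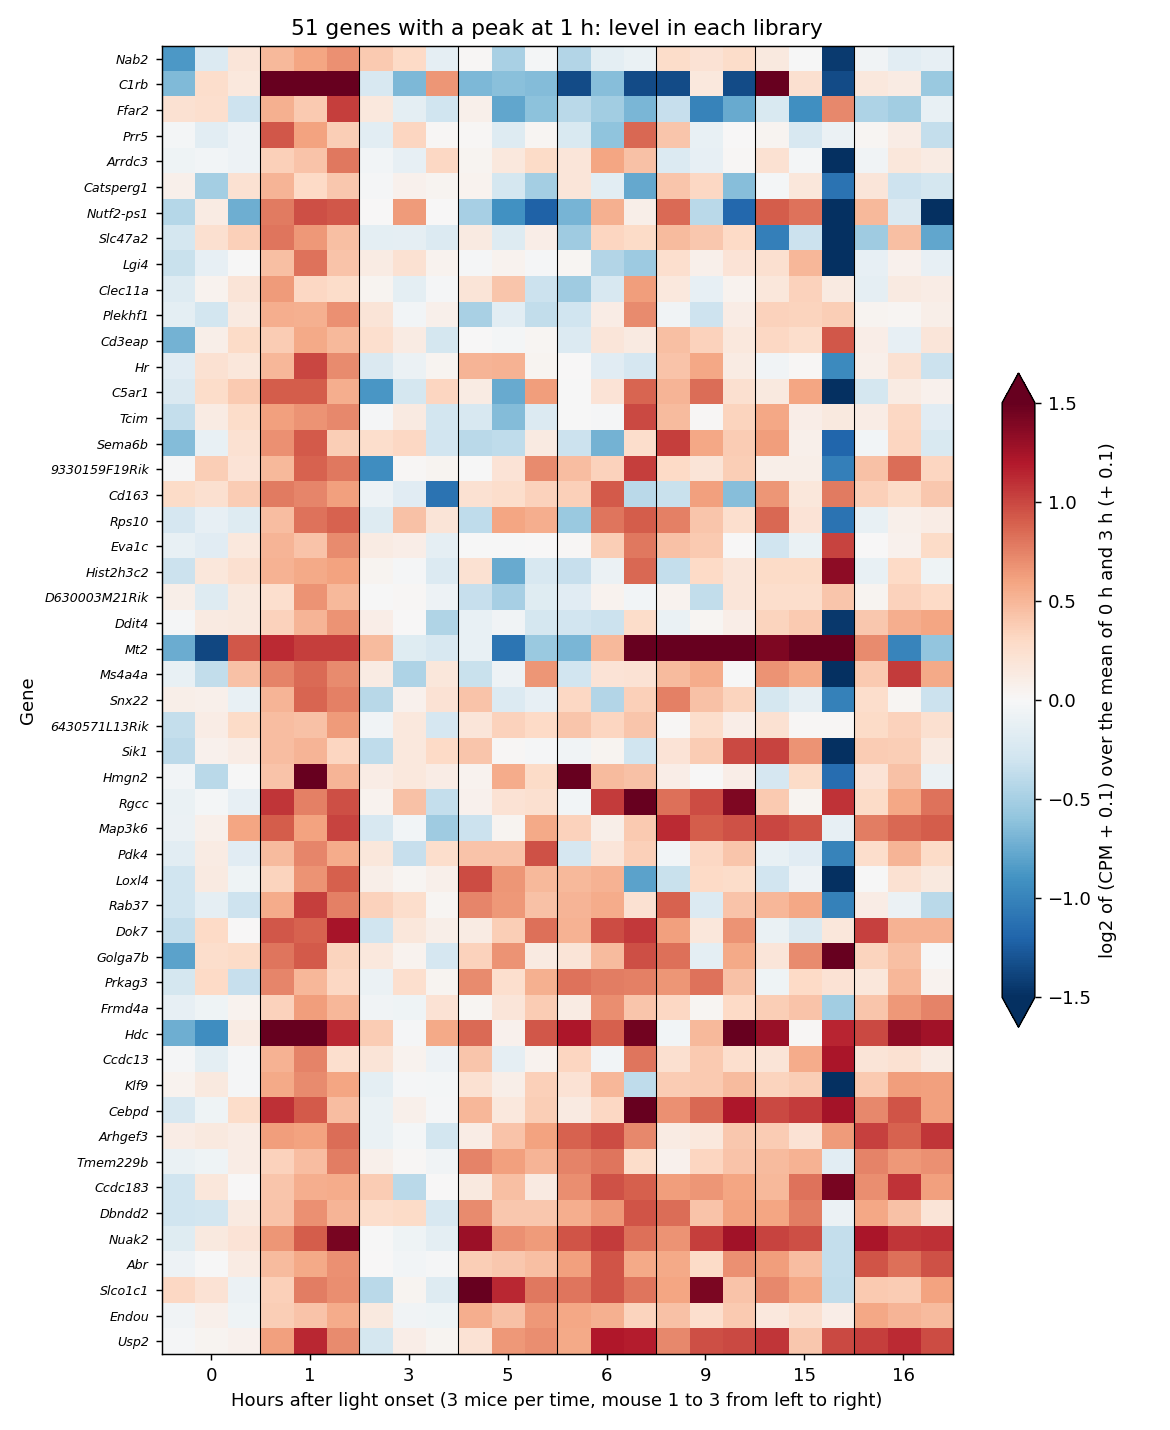
Level of each of the 51 members (rows) in each of the 24 libraries (columns, 3 mice per time, hours after light onset on the x axis), as log2 of CPM + 0.1 over the mean of 0 h and 3 h + 0.1. Rows are ordered by how many of the 15 later libraries exceeded all 6 libraries of 0 h and 3 h, from 0 for Nab2 at the top to 15 for Usp2 at the bottom.

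After 3 h the members went different ways. The 1 h mean was the highest of the 8 times in 27 members, the next to highest in 12 and lower in rank in the other 12. Leaving out the pair of differing libraries, it was the highest in 31, and with TMM-scaled CPM (trimmed mean of M-values) in 23. Only 2 members, Nab2 and 6430571L13Rik, had all 3 mice of 1 h above all 21 other libraries. In 10 members at most 3 of the 15 later libraries rose above the range of 0 h and 3 h, and in 10 others at least 13 did. The label of a transient peak therefore describes the window of 0 to 3 h for every member and the whole sampled day for only some.

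**Figure D2:**
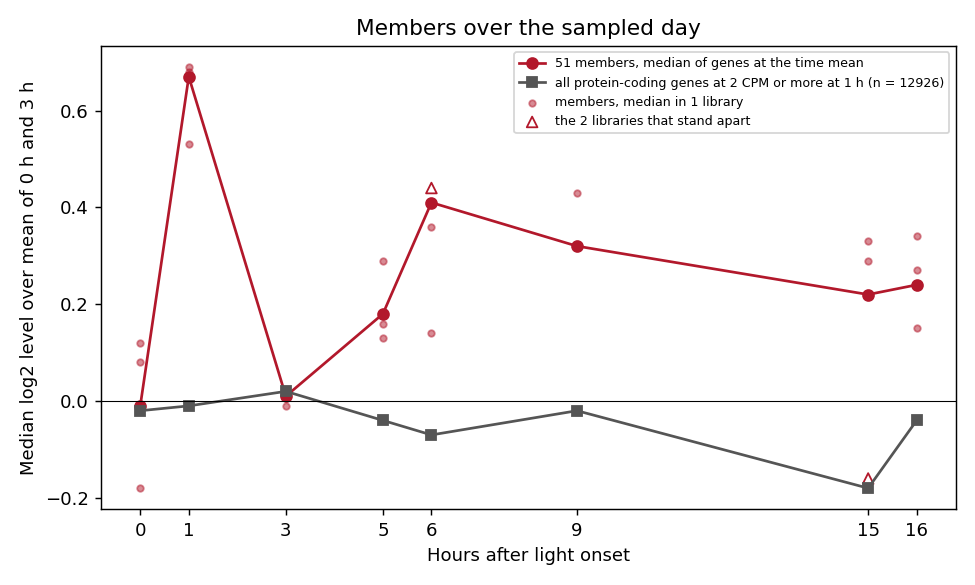
Median over the 51 members (red) and over 12926 protein-coding genes (grey) of the log2 level at each time over the mean of 0 h and 3 h (y axis), by hours after light onset (x axis). Small points are the member medians of single libraries and open triangles are the libraries that stood apart. The members stand at 0.67 at 1 h, 0.01 at 3 h and 0.41 at 6 h, with all libraries included.

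Relative to the mean of 0 h and 3 h, the members' median log2 level was 0.67 at 1 h, 0.18 at 5 h, 0.41 at 6 h, 0.32 at 9 h, 0.22 at 15 h and 0.24 at 16 h. Over all 12926 genes it lay between -0.18 and -0.01 at these times. At 9 h, 45 of 51 members (88.2%) were above that mean, against 45.9% of all genes. Members had to be low at 0 h and 3 h to be chosen, so this later height is a description with no test. By library the members' median ranged from 0.13 to 0.44 in 14 of the 15 later libraries and was -0.16 in mouse 3 of 15 h. Mice 1 and 2 of 15 h were at 0.33 and 0.29. At 6 h mice 1 and 2 were at 0.14 and 0.36, and mouse 3, which differed from the rest, at 0.44.

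Transcriptional regulators made up one group. Nab2 (ENSMUSG00000025402, chromosome 10, 127660918 to 127668568), which binds EGR transcription factors and holds back their targets, was at 24.9, 26.9 and 28.5 CPM in the 3 mice of 1 h. It was at 9.69, 15.4 and 20.1 at 0 h and at 23.3, 21.8 and 16.2 at 3 h, and its 15 later libraries ran from 6.5 through a median of 17.1 to 21.5. No later library reached the lowest mouse of 1 h. Egr1 itself, an EGR factor and no member, had its lowest mean of the 3 times at 1 h. It was at 56.6 ± 55.1, 22.1 ± 3.62 and 38.4 ± 9.47 CPM at 0, 1 and 3 h (mean ± SD, n = 3), so the mice of 0 h differed widely. Of the exonic bases of Nab2, 42.2% are shared with antisense neighbours including Stat6, and the library kit named is not a directional one, so its values are less certain.

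Hr, the hairless corepressor of nuclear receptors, was at 28.1, 40.0 and 32.5 CPM at 1 h. At 0 h it was at 17.6, 23.2 and 22.4, and at 3 h at 17.0, 18.6 and 20.5. Later libraries lay between 10.2 and 29.8 with a median of 20.5, and 3 of them passed the lowest mouse of 1 h. Cebpd (ENSMUSG00000071637, chromosome 16, 15887286 to 15891031), a C/EBP factor of acute responses, went from 34.5 ± 6.39 to 61.9 ± 13.1 and back to 34.1 ± 2.09 CPM (mean ± SD, n = 3). It did not stay there: means were 65.7 ± 12.6 at 9 h, 73.7 ± 6.88 at 15 h and 58.5 ± 6.79 at 16 h. Klf9 (ENSMUSG00000033863, chromosome 19, 23141226 to 23166911), a Krüppel-like factor induced by corticosteroids and thyroid hormone, read 76.3, 84.2 and 77.7 CPM at 1 h against 46.5 to 56.8 in the 6 neighbours. It came back to 67.2, 79.5 and 78.4 at 16 h, and mouse 3 of 15 h had 0.591. Tcim, a small protein linked to Wnt signalling, averaged 16.1 ± 0.617 CPM in the mice of 1 h, against 10.4 ± 2.28 and 9.81 ± 1.38 in those of 0 h and 3 h.

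Kinases and their partners made up another group. Nuak2 (ENSMUSG00000009772, chromosome 1, 132316126 to 132333488), a kinase of the AMPK family, was at 102.4, 120.9 and 173.2 CPM at 1 h, against 56.8, 71.3 and 74.5 at 0 h and 64.4, 61.4 and 58.0 at 3 h. Its later means were 102.2 to 141.3, and 14 of 15 later libraries exceeded the range of 0 h and 3 h. The exception was mouse 3 of 15 h at 50.4. Sik1, a salt-inducible kinase that curbs CREB coactivators, was at 32.6, 33.6 and 29.6 CPM at 1 h. It was at 18.0, 24.6 and 25.6 at 0 h and 18.1, 26.3 and 29.0 at 3 h, so mouse 3 of 1 h and mouse 3 of 3 h differed by little. Map3k6, a stress-activated kinase of the MAP kinase cascade, went from 7.23 ± 1.89 to 11.2 ± 1.64 and then 5.14 ± 0.89 CPM, and was at 12.4 ± 0.954 at 9 h. Pdk4, which shuts down pyruvate dehydrogenase when fat is burnt, read 15.7, 18.8 and 16.6 CPM at 1 h against 8.83 to 13.5 in the 6 neighbours. Prkag3, a regulatory subunit of AMPK, was at 3.29 ± 0.508 CPM and Prr5, a subunit of the kinase complex mTORC2, at 6.98 ± 1.41 CPM at 1 h. Dok7, an adaptor of the receptor kinase MuSK, read 20.7, 20.1 and 25.5 CPM in the mice of 1 h, against means of 10.8 ± 2.44 for 0 h and 10.8 ± 1.81 for 3 h. Dok7 and Prkag3 are best known from skeletal muscle, whose 8 markers summed to 610 to 765 CPM at 0 h, 565 to 1639 at 1 h and 302 to 1408 at 3 h. The part of muscle RNA in these genes was not tested.

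Ddit4 and Arrdc3, brakes on growth and receptor signalling, had their highest means at 1 h, though for Ddit4 by little: 100.1 CPM against 99.5 at 16 h, and 97.9 against 99.4 with TMM scaling. Ddit4 (ENSMUSG00000020108, chromosome 10, 59949669 to 59951834), a stress-induced inhibitor of mTORC1, was at 89.0, 99.7 and 111.6 CPM at 1 h. It read 69.0, 76.6 and 77.3 at 0 h and 74.6, 69.8 and 51.1 at 3 h, and 92.0, 101.8 and 104.9 at 16 h. Arrdc3, an arrestin-domain protein that helps remove receptors from the surface, averaged 99.8 ± 16.9 CPM in the mice of 1 h, against 66.0 ± 0.749 before and 71.6 ± 11.9 after. In later libraries it ran from 22.2 to 103.4, and 2 of the 15 exceeded the range of 0 h and 3 h.

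**Figure D3:**
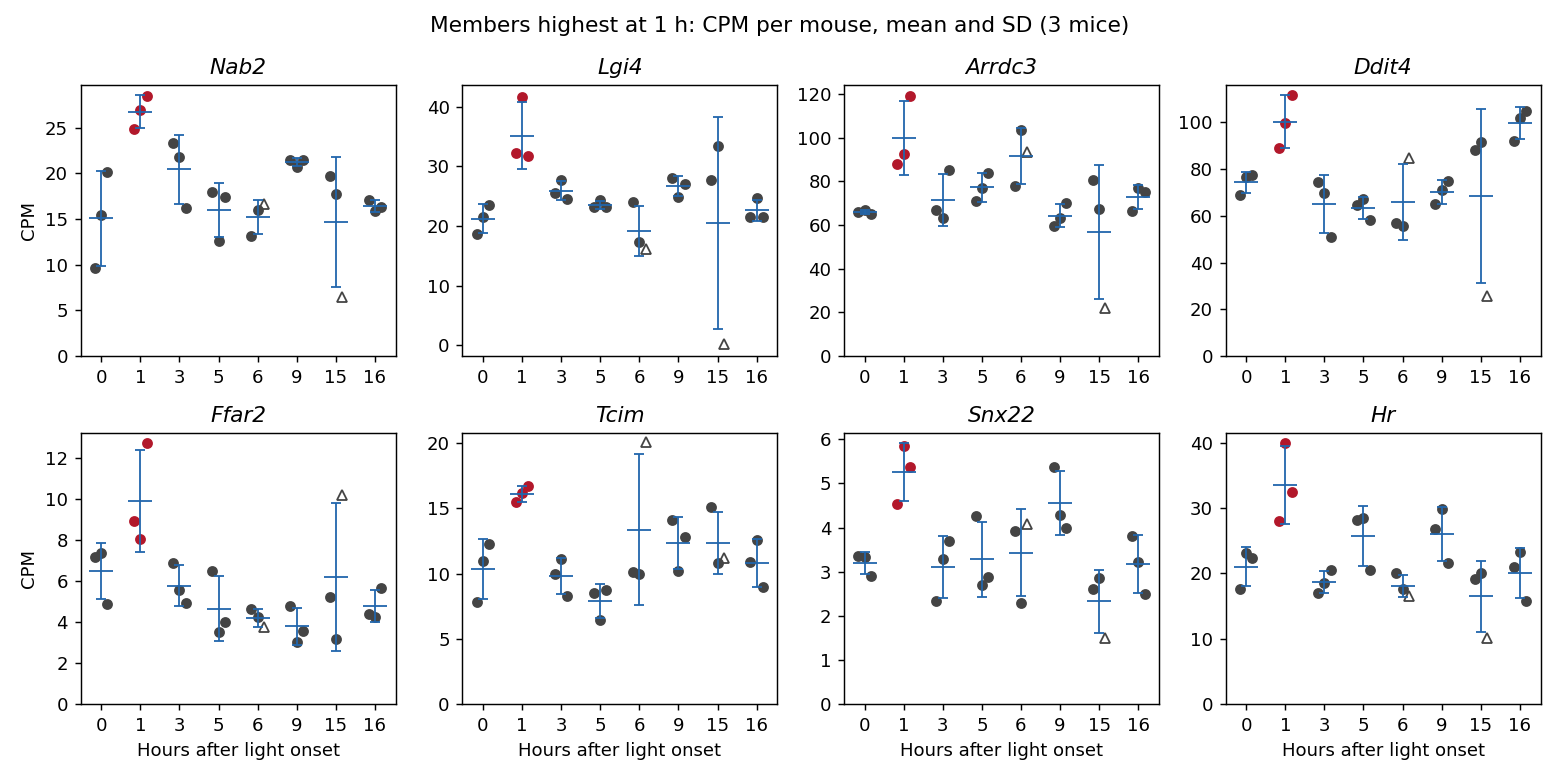
CPM (y axis) of 8 members whose highest mean was at 1 h (with TMM scaling all but Ddit4), by hours after light onset (x axis); points are mice (red at 1 h), open triangles are the libraries that stood apart, and blue bars are the mean ± SD of 3 mice. All 3 red points of Nab2, at 24.9 to 28.5, lie above every other library, and Ddit4 is back at 92.0 to 104.9 at 16 h.

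Regulators of small GTPases and of membrane traffic included several members that were high again through much of the day. Abr (ENSMUSG00000017631, chromosome 11, 76416734 to 76622314), which acts on small GTPases, was at 365.4, 388.1 and 421.9 CPM at 1 h. It was at 248.5, 261.7 and 284.5 at 0 h, at 263.5, 255.5 and 259.7 at 3 h, and at 504.5, 466.9 and 510.5 at 16 h, above all mice of 1 h. Arhgef3, a guanine nucleotide exchange factor, had the same order, with 123.3 ± 1.63, 183.2 ± 16.7, 103.4 ± 8.88 and 226.1 ± 15.5 CPM at 0, 1, 3 and 16 h. Usp2 (ENSMUSG00000032010, chromosome 9, 44067021 to 44095627), a deubiquitinase that acts on clock proteins, was at 33.5, 47.8 and 35.6 CPM at 1 h, against 21.4 to 22.8 at 0 h and 18.1 to 23.3 at 3 h. All 15 of its later libraries (25.3 to 50.3, median 42.8) exceeded these 6, the only member of which that was true. Tmem229b, a membrane protein of unassigned function, averaged 487.6 ± 76.0 CPM in the mice of 1 h, against 332.8 ± 26.1 before and 339.2 ± 16.4 after, and stood at 543.9 ± 18.3 at 16 h. Rab37, a GTPase of secretory vesicles, read 17.5, 24.5 and 20.1 CPM in the mice of 1 h, against 9.55 to 15.1 in the neighbours. Snx22, a sorting nexin (28.5% of exonic bases shared with antisense Ppib), read 4.54, 5.85 and 5.38 CPM in the mice of 1 h and 2.34 to 3.69 in the 6 neighbours. Plekhf1, an endosomal protein, read 19.9 to 22.1 CPM in the mice of 1 h and 11.3 to 15.7 in the neighbours. Golga7b averaged 2.05 ± 0.434 CPM, Dbndd2 24.1 ± 2.21 and Frmd4a 36.0 ± 3.54 in the mice of 1 h. Rgcc, a regulator of the cell cycle, read 15.1, 12.1 and 14.0 CPM there, against 5.53 to 9.7 in the neighbours.

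**Figure D4:**
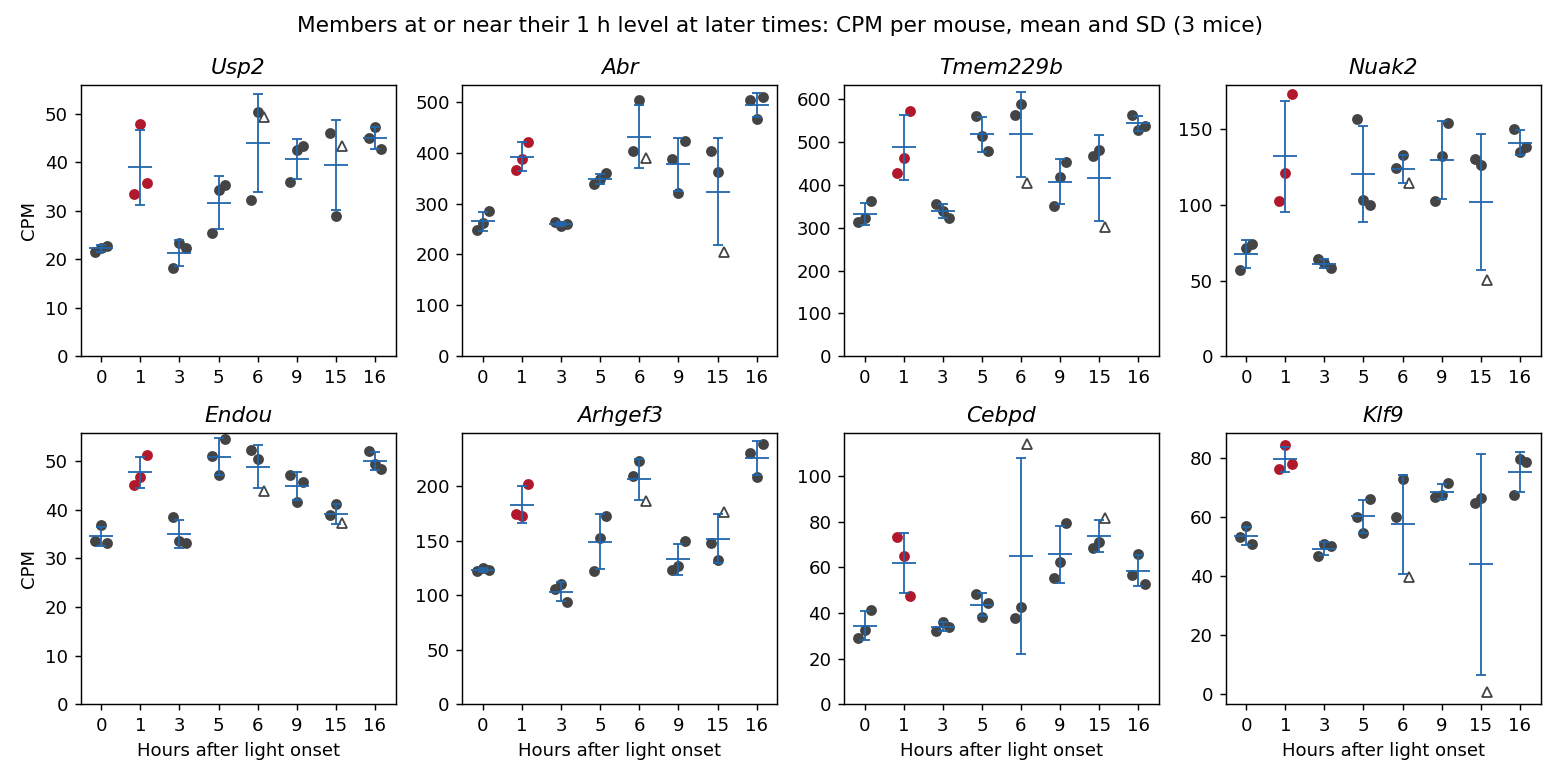
CPM (y axis) of 8 members that were near or above their 1 h level at later times, by hours after light onset (x axis), drawn with the same symbols as the plot of members highest at 1 h. Abr reaches 466.9 to 510.5 at 16 h against 365.4 to 421.9 at 1 h, and Klf9 in mouse 3 of 15 h is at 0.591.

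Transporters, matrix and adhesion genes followed. Slco1c1, a carrier of thyroxine, was at 65.4, 87.3 and 82.8 CPM at 1 h and at 120.2 ± 36.1 at 5 h, and 14 of 15 later libraries exceeded the range of 0 h and 3 h. Slc47a2, an organic cation exporter, was at 2.44 ± 0.311 CPM at 1 h. Loxl4, a lysyl oxidase that cross-links collagen, was at 34.0, 42.9 and 50.2 CPM at 1 h against 21.9 to 29.6 in the neighbours, and at 52.9, 42.5 and 37.8 at 5 h. Lgi4, a secreted ligand of glia, was at 32.2, 41.6 and 31.7 CPM at 1 h, and 1 later library, mouse 2 of 15 h at 33.4, came into that range. Of the exonic bases of Lgi4, 44.9% are shared with antisense Fxyd3. Sema6b, a semaphorin, was at 12.9 ± 2.48 CPM, Eva1c at 18.2 ± 1.87 and Endou, an endoribonuclease, at 47.7 ± 3.2.

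Several members are known from immune cells. Hdc, which makes histamine, was at 8.9, 6.69 and 4.88 CPM at 1 h, against 1.26, 1.09 and 2.36 at 0 h and 2.86, 2.14 and 3.27 at 3 h, a ratio of 4.35 to 0 h. Ffar2, a receptor for short-chain fatty acids, read 8.9, 8.06 and 12.7 CPM in the mice of 1 h and 3.02 to 10.2 later (median 4.23). Cd163, a scavenger receptor of macrophages, was at 3.82 ± 0.227 CPM, C5ar1, the receptor of complement C5a, at 2.76 ± 0.389, Ms4a4a at 6.38 ± 0.324 and the growth factor Clec11a at 16.2 ± 2.37. Cd163 is 1 of the 11 macrophage and mast cell markers, whose summed level at 1 h lay within its range at 0 h. The part of such cells in these values was not tested.

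C1rb, a serine protease of the complement C1 complex, behaved unlike the rest. Its reads were 47, 48 and 56 in the mice of 1 h and 55 in mouse 1 of 15 h, and 0 to 5 in each of the other 20 libraries. It was therefore present in 4 of 24 mice and near 0 in the others, and its ratio is not read as a time course.

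The remaining members were the metallothionein Mt2, the nucleosome protein Hmgn2, the histone gene Hist2h3c2, the ribosomal protein gene Rps10, the pseudogene-derived Nutf2-ps1, Cd3eap, a subunit of RNA polymerase I, the coiled-coil genes Ccdc13 and Ccdc183, the sperm channel subunit Catsperg1, and 3 genes known by clone names. Mt2 was at 7.65, 7.23 and 7.25 CPM at 1 h, with mouse 3 of 0 h close at 6.71, and was at 11.1, 16.3 and 11.5 at 9 h. Of its exonic bases 73.5% are shared with an antisense gene. Hmgn2 owed its 1 h mean of 10.7 to mouse 2 at 17.1, with 7.23 and 7.63 in the others and 4.01 to 6.0 in the neighbours. Hmgn2, Rps10 (3.77 ± 0.578 CPM in the mice of 1 h), Hist2h3c2 (10.8 ± 0.307) and Nutf2-ps1 (5.06 ± 0.347) have near-identical copies, and their counts are uncertain. Cd3eap averaged 9.42 ± 0.625, Ccdc13 11.5 ± 1.94, Ccdc183 4.77 ± 0.253 and Catsperg1 3.56 ± 0.27 CPM in the mice of 1 h. Of the genes with clone names, 6430571L13Rik read 35.9, 35.3 and 40.5 CPM there, above all 21 other libraries (20.3 to 34.7), while D630003M21Rik averaged 27.9 ± 4.08 and 9330159F19Rik 6.9 ± 0.987. Of the 51 members, 17 share exonic bases with another gene and 6 share 20% or more. Besides those named they include Rps10 (28.7%) and Dbndd2 (20.7%).

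Of 18 pathway lists written with earlier results of these data known, 5 held a member. The list of glucocorticoid targets, genes switched on by the corticosteroid receptor, held Cebpd, Ddit4, Klf9, Mt2 and Pdk4. With Per1, Cdkn1a and Tsc22d3, which the rule took and set aside, that was 8 of 23 measured, 34.8% against 0.425% of all genes. The list's median ratio of 1 h to the higher neighbour was 1.29, against 0.96 over all genes, and 18 of 23 were above 1. Fkbp5, a co-chaperone of the receptor, stood at 22.7, 35.3 and 16.1 CPM at 0, 1 and 3 h and Sgk1, a kinase of salt transport, at 1007, 1317 and 1022, without meeting the rule. Dusp1 (35.5, 28.7 and 45.6 CPM) and Mt1 (1282, 1156 and 1048) were not highest at 1 h. Since the rule used this contrast and the list was known to move, the count is a description.

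Other lists held few members. Cebpd was also the 1 member among 21 cytokine and STAT feedback genes, and Sik1 among 20 cyclic AMP targets. Pdk4 was the 1 member among 18 insulin and FOXO targets and Ddit4 among 19 ATF4 and unfolded protein response genes. With the genes set aside counted here too, the rule took 2 of the 21 cytokine genes (with Cish) and 2 of the 20 cyclic AMP targets (with Per1). It also took 1 of 24 core clock genes (Per1) and 1 of 17 p53 targets (Cdkn1a). Each of these shares, the lowest being 4.2% for the core clock, exceeded the 0.425% of all genes. In lists of 17 to 24 measured genes a single gene is enough for that, so this is a description and no sign of enrichment. All of these shares were below the 34.8% of the glucocorticoid list. Immediate early transcription factors gave 0 of 22, with a median ratio of 0.93. Fos was at 10.7 ± 5.09, 5.49 ± 2.58 and 9.43 ± 2.69 CPM at 0, 1 and 3 h (mean ± SD). Nr4a1 was at 27.6 ± 17.5, 21.7 ± 1.74 and 34.8 ± 10.1 CPM. Lists for ERK and FGF feedback, heat shock, hypoxia, NF-kB, interferon, lysosome and autophagy, and outer segment phagocytosis also gave 0. The 4 genes set aside were Per1 (32.1, 115.8 and 50.2 CPM at 0, 1 and 3 h), Cish (9.02, 29.7 and 9.31), Tsc22d3 (44.8, 87.0 and 46.3) and Cdkn1a (14.1, 25.2 and 15.5).

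The 15 libraries of 5 to 16 h played no part in the choice of members, so variation among those times could be tested. Counts were fitted with edgeR's quasi-likelihood model over all 17554 genes that passed a filter on low counts, and 50 members were among them (C1rb was not). No member passed for change over the 5 times or for a difference between night (15 h and 16 h) and day (5, 6 and 9 h) at a Benjamini-Hochberg adjusted p under 0.05. The background was low too, 0.0798% of genes over time and 0.336% for night against day (0.228% higher and 0.108% lower at night). At an unadjusted p under 0.05, 9 of 50 members varied over time, against 1660 of 17554 genes (9.46%). Night and day differed in 11 of 50 members, against 1662 of 17554 genes (9.47%). DESeq2 called 3 members over time (D630003M21Rik, Map3k6 and Mt2), against 3.13% of genes, and 1 for night against day (D630003M21Rik), against 1.80%. Limma-voom called 0 and 0.

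Mouse 3 of 15 h and mouse 3 of 6 h were then left out. Of 50 members 14 now varied over time (edgeR, 13 libraries), against 2495 of 17871 genes (14.0%). At an unadjusted p under 0.05 it was 24 of 50, against 5252 of 17871 genes (29.4%). Differences between night and day were called in 6 of 50 members, 5 higher and 1 lower at night. Of the 17871 genes 1198 were called (6.70%), 3.87% higher and 2.84% lower. The median log2 difference, night minus day, was 0.04 over the members and 0 over all genes. Ddit4 had a log2 difference of 0.58 (SE 0.05, adjusted p = 1.98e-06). Its 15 h mice, 88.3 and 91.4 CPM, and its 16 h mice, 92.0 to 104.9, lay above the 55.6 to 75.0 of day mice other than the one left out. Map3k6 (0.46, SE 0.12, 0.0287), D630003M21Rik (0.38, SE 0.10, 0.0182), Cebpd (0.38, SE 0.09, 0.0236) and Plekhf1 (0.35, SE 0.10, 0.0392) were also higher at night by edgeR's test. Loxl4 was lower at night, with -0.48 (SE 0.12, adjusted p = 0.0303), from 37.8 to 52.9 CPM at 5 h to 22.1 and 25.6 in the 2 mice of 15 h. Its day mice of 9 h (21.4 to 33.0) overlapped its night mice of 16 h (26.7 to 31.6), and with the replicate number as a block the call was lost (adjusted p = 0.0632, edgeR).

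The 14 members that varied over time in the 13 libraries had different courses. Arhgef3 had the lowest adjusted p after Ddit4 (0.000685 and 1.67e-05, edgeR), and was at 209.8 and 223.3 CPM at 6 h, 123.3 to 149.6 at 9 h and 208.6 to 238.5 at 16 h. Tmem229b (0.00433) had its highest later mean at 6 h and Abr (0.0108) at 16 h. Map3k6 (0.00566) and Sema6b (0.00982, 10.5 to 16.6 CPM at 9 h) had their highest later means at 9 h, and Mt2 (0.0188) read 9.36 to 16.3 CPM at 9 h and 15 h and 1.57 to 5.73 at 5, 6 and 16 h. Loxl4 (0.0194) and Pdk4 (0.0319) had their highest later means at 5 h. Endou (0.0189) read 47.1 to 54.6 CPM at 5 h, 50.5 and 52.2 at 6 h and 39.0 and 41.2 at 15 h. The others were Cebpd (0.00855), Hmgn2 (0.0288), D630003M21Rik (0.0308) and Arrdc3 (0.0427). For Hmgn2 a single library, mouse 1 of 6 h at 19.5 CPM, stood far above the rest, and its call was lost with the block (adjusted p = 0.102, edgeR). Usp2 (adjusted p = 0.412), Nuak2 (0.894) and Klf9 (0.123) did not pass.

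**Figure D5:**
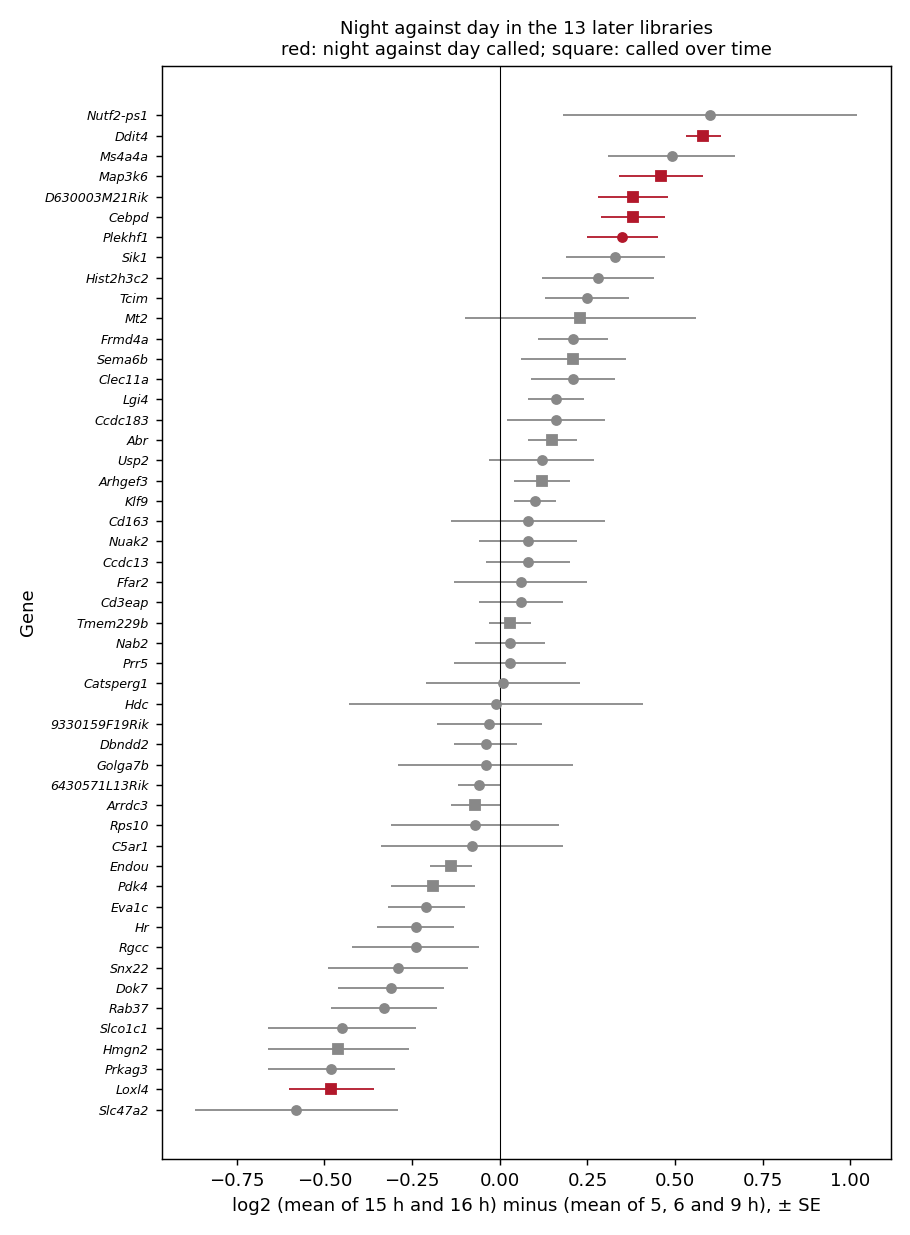
Log2 difference between night (15 h and 16 h) and day (5, 6 and 9 h), ± SE from edgeR (x axis), for the 50 members tested in the 13 later libraries that did not stand apart (y axis). Red marks the 6 genes called between night and day and squares the 14 called over the 5 times. Ddit4 is at 0.58 and Loxl4 at -0.48.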

How the data were processed

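RNA-seq counts of RPE from 24 mice, 3 at each of 8 times, were used. The authors deposited whole-number counts of reads per gene, 1 column per mouse, which were not normalized. STAR, HTSeq and the build mm10 are named, per the submitters' processing notes; their roles, versions and settings are not stated in the labels. The kit named in the labels' protocols, NEBNext Ultra RNA, is not a directional one. Columns were matched to times by clock hour, with light onset as in the series' design text. The labels call the mice biological replicates.

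Members, gene lists and tests were chosen with earlier results of these data known. The rule was applied to CPM by column sums at 0, 1 and 3 h, and these values were not tested. Counts of 5 to 16 h were tested with edgeR 4.0.16 (R 4.3.3; filterByExpr with minimum count 10, TMM, robust quasi-likelihood F tests) with Benjamini-Hochberg adjustment across every gene kept, with DESeq2 1.42.0 and limma 3.58.1 as alternatives. TMM shifted the log2 level of mouse 3 of 15 h by 0.455 and of every other library by at most 0.073 in size. No pair of libraries differed by less than sampling noise (lowest chi-square per degree of freedom 5.85 over 276 pairs). The edgeR step was also run on simulated counts in which some genes changed at night only. No simulated library differed in composition as the libraries that stood apart do, so that run says nothing about their effect. Genes are named when they are members in a list, among the highest ratios, called at later times or next to the threshold; the remaining members are given in brief, chosen after their values were seen. Coordinates are those of the deposited table. Gene model lengths equal those of GENCODE vM21 for 48 of 51 members. One rod marker is not reported here, and of 13 marker lists those that touch a result are given.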

Additional observations from a re-analysis of the deposited data

How the results depend on the processing

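The number of members was 91 at a ratio of 1.2, 20 at 1.5 and 207 with no condition on overlap, and 49 to 128 on leaving out 1 mouse of 0, 1 or 3 h (90 when mouse 1 of the 1 h group was dropped and 128 for mouse 3). The rule at 3 h gave 79 at 1.5, 474 with no condition on overlap and 136 to 336 without 1 mouse (290 when mouse 2 of the 1 h group was dropped, and 228, 336 and 228 for mice 1, 2 and 3 of the 3 h group); the cause was not tested. TMM scaling gave 57 members, with all 51 among them, and 122 genes at 3 h.

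Over 5 to 16 h, 14 genes were called over time and 59 between night and day. DESeq2 gave 550 and 316, all 24 libraries in the fit 110 and 229, the 13 libraries 2495 and 1198, and the fit on 22 libraries, added after seeing the data, 2124 and 1062. Leaving out 1 mouse gave 6 to 283 and 22 to 376, with both upper values from leaving out mouse 3 of 15 h. The count over time fell to 9 or fewer on dropping mouse 1 or 2 from 5 h, mouse 2 from 6 h, mouse 3 from 9 h or any from 16 h, and that between night and day to 36 or fewer on dropping any from 5, 9 or 16 h, or mouse 1 from 6 or 15 h. Members called over time and between night and day numbered 0 and 0 in 15 libraries, 3 and 1 by DESeq2, 0 and 1 with all 24 libraries, 14 and 6 in the 13 and 15 and 7 in the 22. Without 1 mouse they numbered 0 to 1 each; the exceptions to 0 were Arhgef3 (adjusted p = 0.00827) and Ddit4 (0.0142) without mouse 3 of 15 h. Over 25 settings the 14 members called in the 13 libraries were called over time in 2 to 4, with adjusted p up to 0.863, and the 6 night calls held in 2 to 5. Signs of these 6 were the same in every setting.

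With the replicate number as a block, 6 genes were called over time and 37 between night and day, and 0 members in both; in the 13 libraries the block gave 2575 and 1201 genes and 14 and 6 members. These were not all the same members: over time Hmgn2 was lost, between night and day Loxl4 was lost, and Hr was gained in both (adjusted p = 0.00263 and 0.0329). Most same-numbered mice of different times did not deviate together (median correlation 0.016, 17 of 84 pairs over 0.1). Single pairs ranged from -0.317 to 0.535, and both libraries that stood apart are of mouse 3. The numbers were not taken to pair the mice, and a batch shared by some of them was not tested.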

Other observations

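Outside the protein-coding genes, 10 further genes met the rule at 1 h. The highest ratio was that of the lincRNA Gm42743, with 1.45 ± 0.247, 2.75 ± 0.597 and 1.32 ± 0.258 CPM at 0, 1 and 3 h (SD, n = 3), and the highest CPM was that of 1700018L02Rik, annotated as antisense, with 31.6 ± 0.79, 42.7 ± 6.68 and 23.9 ± 4.48 CPM.

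Among the 84 genes that were lower at 1 h than at 0 h and 3 h, several are leukocyte genes, chosen for naming after their values were seen: Ptprc, the common leukocyte antigen (47.0, 28.0 and 41.1 CPM at 0, 1 and 3 h), Ccr7, a homing receptor (2.6, 1.26 and 3.28), and Cd79a, a part of the B cell receptor (2.94, 1.31 and 3.35).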
